A study of Mus musculus with 4 samples.

Results

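The G1 and S phase cyclins and their cyclin-dependent kinases (CDKs) were examined in mouse oocytes at the germinal vesicle (GV) stage and after 12 h of culture with or without tubastatin A (TubA), an inhibitor made against the cytoplasmic deacetylase HDAC6. The genes were taken by symbol, and all 10 of 10 were found among 21957 genes, each as 1 entry. They are the D-type cyclins *Ccnd1*, *Ccnd2* and *Ccnd3*, the E-type cyclins *Ccne1* and *Ccne2*, the A-type cyclins *Ccna1* and *Ccna2*, and the kinases *Cdk2*, *Cdk4* and *Cdk6*. The rule for choosing them uses symbols and no measured value, although the set was chosen with earlier results of these data known.

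Cyclins are the regulatory subunits that switch CDKs on. In a dividing somatic cell, D-type cyclins bind CDK4 and CDK6 and start the phosphorylation of the retinoblastoma protein, which releases E2F transcription factors. E-type cyclins with CDK2 then carry the cell into S phase, and A-type cyclins act with CDK2 in S phase and with CDK1 later on. A fully grown oocyte is arrested in prophase of meiosis I with its chromosomes already replicated. It resumes meiosis through CDK1 and B-type cyclins and passes to meiosis II without an S phase in between. Transcription is largely silent in such oocytes, and levels of mRNA in libraries selected for poly(A) can follow both decay and the length of the poly(A) tail.

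There were 4 libraries, 1 for each condition, each from a pool of 100 oocytes by the methods of the study, although its text and title also speak of single oocytes or cells, of B6D2F1 hybrid females (C57BL/6 x DBA) aged 6 to 8 weeks. According to the methods of the study, all females received PMSG, and cumulus cells were removed with hyaluronidase before culture in M16 medium. GV oocytes stand for 0 h of culture without treatment. MII oocytes were cultured for 12 h without TubA and were kept when a polar body had been extruded, and TubA-10 and TubA-20 oocytes were cultured for 12 h with 10 μM or 20 μM TubA. No such selection by polar body is stated for the TubA oocytes, so treatment and meiotic stage cannot be told apart in the comparisons with MII. TubA was dissolved in DMSO, and no DMSO is stated for the GV and MII oocytes. The sample titles give the doses above, whereas under treatment the labels list 20 μM for the TubA-10 sample and 11 μM for the TubA-20 sample, and the title of the MII sample speaks of an embryo.

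Because there was 1 library for each condition, differences have no replicate check and carry no p-value. Levels are FPKM, fragment numbers scaled to the length of the transcript and to the size of the library. Comparisons between genes rest on this scaling to length, and differences in poly(A) tail length between genes could still affect them. Changes are log2 ratios of FPKM + 1, which understate the change of genes with low levels. A change is counted when it passes 2-fold, a log2 ratio of 1 in either direction. Judged from the steps between low FPKM values, the depth relative to GV was 1.62 for MII, 1.71 with TubA-10 and 0.897 with TubA-20. The paper, however, reports more reads for TubA-20 than for GV, so the depth of TubA-20 relative to GV is uncertain. A rough number of fragments behind a value, from a separate estimate, is given where it is small. All 10 oocyte markers examined were above 1 FPKM in every library, 4 of 5 blood markers were at 0 in all libraries, and the 13 cumulus and granulosa markers summed to between 11.1 and 19.3 FPKM in a library. The median log2 ratio of the 9193 genes that reached 1 FPKM in all libraries was 0.13 between MII and GV, 0.14 between TubA-10 and GV and 0.19 between TubA-20 and GV, and changes of single genes are to be read relative to these.

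The levels went in 2 directions after culture. *Ccna2*, *Ccne1*, *Ccne2* and *Ccnd3* were higher in each of the 3 cultured libraries than in GV. In contrast, *Ccnd2*, *Cdk2*, *Cdk4* and *Cdk6* were lower in each of them, except that *Cdk2* and *Cdk6* in TubA-10 turned slightly higher than in GV when the libraries were scaled to equal *Gapdh*. *Ccnd1* and *Ccna1* were too low to be read either way.

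**Figure D1:**
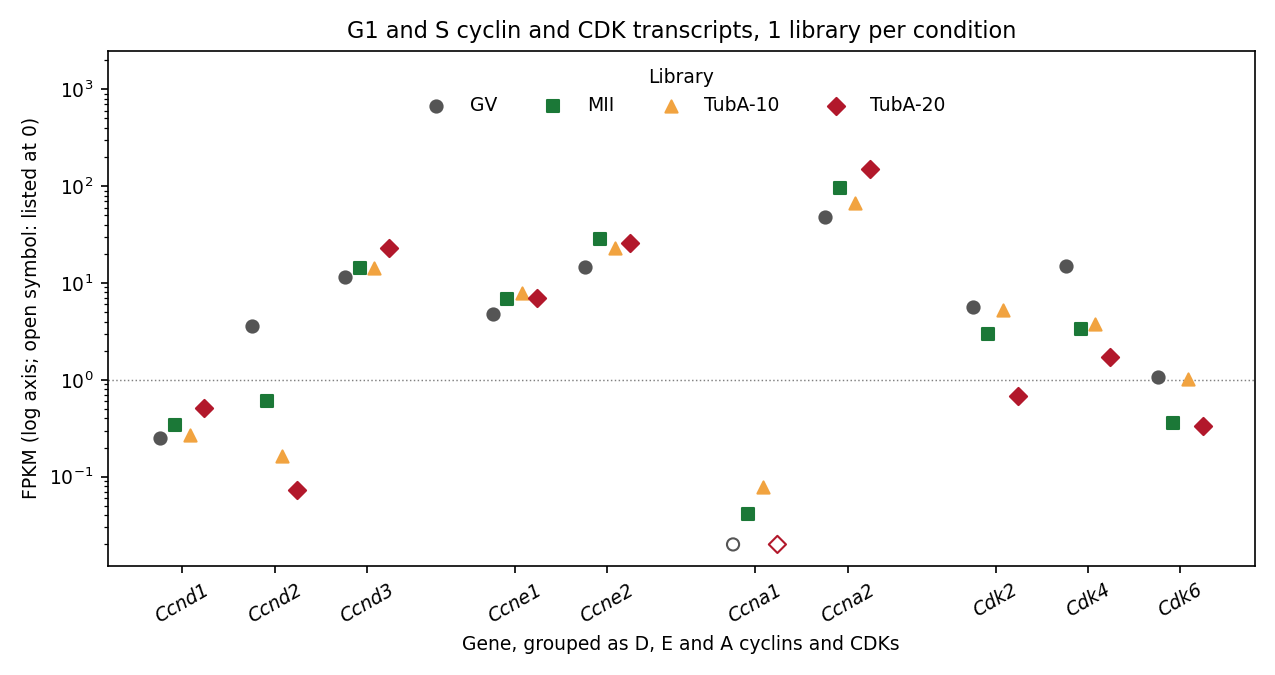
FPKM of the 10 genes (log axis) in the 4 libraries, 1 library for each condition, with open symbols for genes listed at 0 and a dotted line at 1 FPKM. *Ccna2* has the highest level in every library, reaching 150.2 FPKM in TubA-20, and *Cdk2* and *Cdk4* are lowest in TubA-20.

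The 3′ untranslated region (UTR) of stored oocyte mRNAs is where the cytoplasmic polyadenylation element (CPE) lies, which lengthens the poly(A) tail during maturation. Since the libraries were made from RNA bound by oligo(dT), 1 CPE each is shown for *Ccna2*, both E-type cyclins, *Cdk2* and *Cdk4*. These are part of the cyclins and kinases whose levels went in opposite directions. *Ccnd3*, which also rose, and *Ccnd2* and *Cdk6*, which also fell, are not shown. Each CPE shown is the one nearest to a poly(A) hexamer, except in *Cdk4*, whose 3′ UTR holds no hexamer and only this CPE. The sequences are from the principal transcripts of GENCODE M21 on GRCm38, on the strand of the transcript and 5′ to 3′, each 30 bases long, with the CPE in capitals.
*Ccna2* at chr3:36566027-36566056 on the minus strand: ctatttggataaTTTTAATtggttaacatt
*Ccne2* at chr4:11204389-11204418 on the plus strand: ataaacttaatcTTTTAATactgtttactt
*Ccne1* at chr7:38097994-38098023 on the minus strand: atgtctatcaatTTTTAATaaagataatac
*Cdk2* at chr10:128698021-128698050 on the minus strand: agaaaatatttcTTTTATgattttcttctc
*Cdk4* at chr10:127067243-127067272 on the plus strand: tactgggatcttTTTTATacaggaaaacaa

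The motifs searched, on the transcript strand only, were TTTTAT or TTTTAAT for the CPE and AATAAA or ATTAAA for the hexamer. A CPE of the form TTTTAAT can overlap the hexamer AATAAA, as it does in *Ccne1*, where the hexamer starts 4 bases after the start of the CPE. *Ccna2* held 8 CPEs in a 3′ UTR of 1369 bases, and 0.821% of 1461 expressed genes with a 3′ UTR within 20% of that length held as many, their median being 1. *Ccne2* held 4 CPEs in 1577 bases, a count reached by 21.7% of genes of like length, and *Ccne1* 2 in 531 bases, reached by 19.0%. The elements of *Ccna2* are thus more numerous than in nearly all genes of its UTR length, while those of the E-type cyclins are not unusual.

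*Cdk2* held 2 CPEs in 1167 bases, a count reached by 43.6% of genes of like length, and *Cdk4* 1 in 899 bases, reached by 61.3%. *Ccnd3* and *Ccnd2* held 1 each, *Ccnd1* 3, *Cdk6* 6 in a 3′ UTR of 10217 bases and *Ccna1* 0. In the last 150 bases of the transcript a CPE was found in *Ccne1* and *Cdk2*. These are 2 of the 10 genes, against 23.4% of all 18098 genes with a 3′ UTR of at least 150 bases. They are also 2 of the 8 members that reached 1 FPKM in a library, against 26.2% of 9680 such genes. None of the 8 elements of *Ccna2* lies in that window, and the one shown starts 190 bases into the 3′ UTR and 45 bases from the nearest hexamer. These matches describe the annotated transcript only, and the end that the oocyte uses was not measured.

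The D-type cyclins bind CDK4 and CDK6, and the 3 genes had different courses. *Ccnd3* (chr17:47505051-47599691, plus strand) was at 11.6 FPKM in GV, 14.4 in MII, 14.4 with TubA-10 and 23.1 with TubA-20. It was thus near one level in MII and TubA-10 and highest in TubA-20, with log2 changes of 0.28 in MII, 0.28 with TubA-10 and 0.93 with TubA-20 against GV, the last reaching 1.07 when the libraries were scaled to equal upper quartiles. TubA-20 was higher than MII by 0.65 and than TubA-10 by 0.65 on the log2 scale. *Ccnd3* has a processed pseudogene, *Ccnd3-ps*, on chromosome 4, which could share reads with it, so its level is less certain.

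*Ccnd2* (chr6:127125162-127152193, minus strand) was at 3.56 FPKM in GV, 0.608 in MII, 0.165 with TubA-10 and 0.0721 with TubA-20, the last resting on about 4 fragments. GV stands apart from the 3 cultured libraries, and the log2 change against GV was -1.51 in MII, -1.97 with TubA-10 and -2.09 with TubA-20. Against MII it was -0.47 with TubA-10 and -0.58 with TubA-20. Both passed 2-fold lower at smaller pseudocounts, at -1.42 and -2.04 with 0.1 FPKM and at -1.82 and -2.91 with 0.01. These differences rest on few fragments, about 67 in MII and 20 with TubA-10. Cyclin D2 is the D-type cyclin known from granulosa cells, where FSH induces it. Of the 13 cumulus and granulosa markers 5 were also highest in GV, but another 5 were highest in TubA-20. The share of all genes highest in GV was not taken, so this count cannot be set apart from it. The markers highest in GV were as follows. *Inha*, an inhibin subunit, was at 7.50 FPKM in GV, 0.314 in MII, 0.310 with TubA-10 and 0.239 with TubA-20. *Inhba*, the activin A subunit, was at 0.956, 0.330, 0.126 and 0 FPKM in the same order, and the FSH receptor gene *Fshr* at 0.417, 0.138, 0 and 0. *Amh* was at 0.127 FPKM in GV and at 0 in the other 3 libraries, and *Gja1*, the connexin 43 gene, was at 2.29 FPKM in GV, 0.438 in MII, 0.0822 with TubA-10 and 1.54 with TubA-20.

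Of the 13 cumulus and granulosa markers, 5 were highest in GV, 2 in MII, 0 with TubA-10 and 5 with TubA-20, and *Foxl2* was at 0 in all. Their summed level was 19.3 FPKM in GV, 14.7 in MII, 11.1 with TubA-10 and 18.4 with TubA-20, with *Cyp19a1*, the aromatase gene, the most abundant at 6.14, 8.60, 7.42 and 10.3 FPKM. The whole list thus did not follow *Ccnd2*, while *Inha* did. *Gja1* followed it only in part, being lower in MII and TubA-10 than in GV (2.29 FPKM) but at 1.54 FPKM with TubA-20. *Inhba*, *Fshr* and *Amh* were highest in GV too, but they stayed below 1 FPKM in every library, too low to be read. In such pools fewer cells of a type and less RNA per cell cannot be told apart, and the part of remaining granulosa cells in the fall of *Ccnd2* was not tested.

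**Figure D2:**
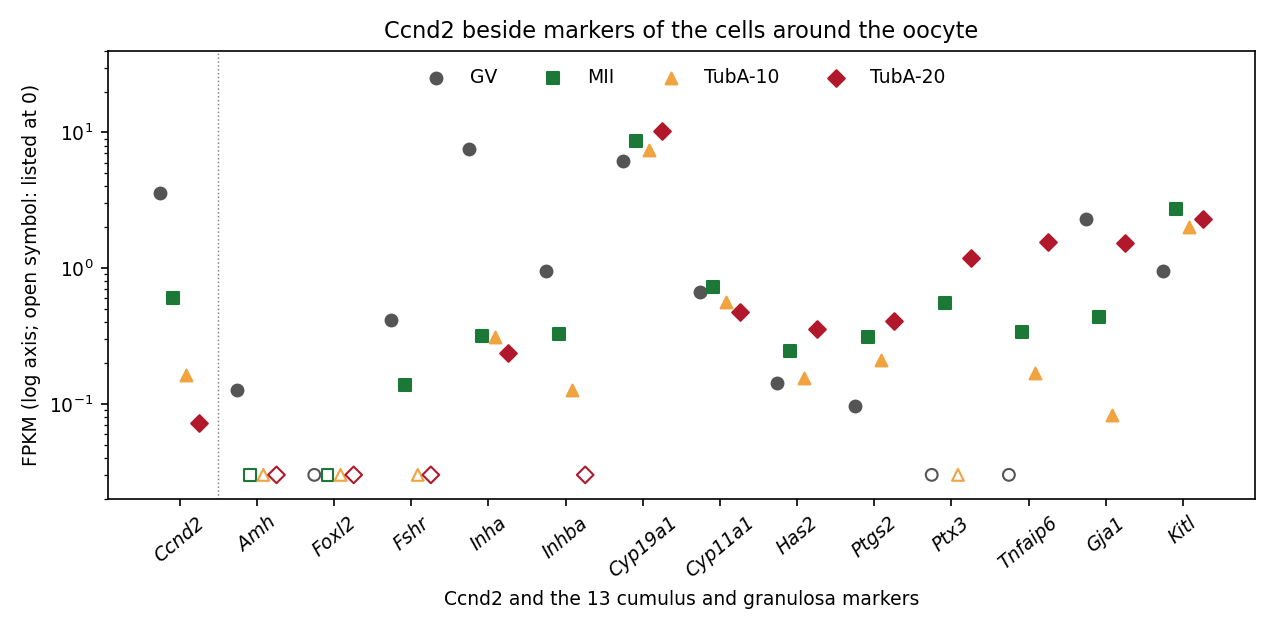
FPKM (log axis) of *Ccnd2* and the 13 cumulus and granulosa markers in the 4 libraries, with open symbols for genes listed at 0. *Ccnd2*, *Inha*, *Inhba*, *Fshr*, *Amh* and *Gja1* are highest in GV, while *Cyp19a1*, *Has2*, *Ptgs2*, *Ptx3* and *Tnfaip6* are highest in TubA-20.

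*Ccnd1* (chr7:144929931-144939925, minus strand) stayed below 1 FPKM, at 0.253 in GV, 0.346 in MII, 0.268 with TubA-10 and 0.507 with TubA-20. With about 11 to 22 fragments in a library, a difference in *Ccnd1* was not detectable at this depth. After culture nearly the whole class was 1 gene. *Ccnd3* made up 75.3% of the FPKM of the D-type cyclins in GV, 93.8% in MII, 97.1% with TubA-10 and 97.6% with TubA-20. The share of *Ccnd2* was 23.1% in GV and 3.97%, 1.11% and 0.305% in MII, TubA-10 and TubA-20.

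The E-type cyclins, which activate CDK2 at the start of S phase, were higher in each cultured library than in GV. *Ccne2* (chr4:11191351-11204779, plus strand) was at 14.8 FPKM in GV, 28.4 in MII, 23.2 with TubA-10 and 26.0 with TubA-20. All 3 cultured libraries lie above GV, by 0.90 in MII, 0.62 with TubA-10 and 0.78 with TubA-20 on the log2 scale, short of 2-fold in each. *Ccne1* (chr7:38097984-38107534, minus strand) was at 4.78 FPKM in GV, 6.90 in MII, 7.93 with TubA-10 and 6.94 with TubA-20. Its log2 changes against GV were 0.45, 0.63 and 0.46, and TubA-20 differed from MII by 0.01, with a sign that turned under 3 of 4 scalings. Both TubA libraries were below MII for *Ccne2*, and TubA-10 was above it for *Ccne1*.

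*Ccne2* was the more abundant of the pair in every library, at 3.09 times *Ccne1* in GV, 4.12 times in MII, 2.93 times with TubA-10 and 3.75 times with TubA-20. The E-type cyclins thus showed the smallest span among the members above 1 FPKM in every library, with a highest level 1.66 times the lowest for *Ccne1* and 1.92 times for *Ccne2*. *Ccnd3* spanned 1.98 times and *Ccna2* 3.15 times.

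The A-type cyclins divide by tissue, *Ccna1* being the form of the male germ line and *Ccna2* the form of most other cells. *Ccna2* (chr3:36564865-36572150, minus strand) was at 47.7 FPKM in GV, 95.4 in MII, 66.5 with TubA-10 and 150.2 with TubA-20. It was the most abundant of the 10 genes in all 4 libraries, and among the genes above 0 it stood in the top 14.7% in GV, 7.72% in MII, 11.0% with TubA-10 and 5.60% with TubA-20. TubA-10 lies between GV and MII, and TubA-20 lies above both. Relative to GV its log2 change was 0.98 in MII, just short of 2-fold and past it under 3 of 4 scalings (up to 1.21), 0.47 in TubA-10 and 1.63 in TubA-20.

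Both doses therefore fell on opposite sides of MII for *Ccna2*, with log2 changes against MII of -0.51 in TubA-10 and 0.65 in TubA-20. TubA-20 was higher than TubA-10 by 1.16, past 2-fold, although this difference was 0.97 when the libraries were scaled to equal *Gapdh*. *Ccna1* (chr3:55045469-55055501, minus strand) was listed at 0 in GV and TubA-20, at 0.0410 FPKM in MII and at 0.0780 in TubA-10. These values rest on about 1 and 3 fragments, so a difference in *Ccna1* was not detectable at this depth.

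The kinases moved the other way. *Cdk4* (chr10:127063534-127067920, plus strand), which codes for a partner of the D-type cyclins, was at 14.8 FPKM in GV, 3.35 in MII, 3.79 with TubA-10 and 1.71 with TubA-20. GV was well above the cultured libraries, and TubA-20, with about 34 fragments, was the lowest. On the log2 scale *Cdk4* changed by -1.86 in MII, -1.72 with TubA-10 and -2.54 with TubA-20 against GV, past 2-fold in all 3, and by -0.68 in TubA-20 against MII.

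*Cdk2* (chr10:128697939-128705031, minus strand), the partner of the E-type and A-type cyclins, was at 5.70 FPKM in GV, 2.98 in MII, 5.21 with TubA-10 and 0.680 with TubA-20. TubA-10 was close to GV, MII was lower than both, and TubA-20 was far below the other 3 libraries, with about 15 fragments against 116 in MII. The log2 changes against GV were -0.75 in MII, -0.11 with TubA-10 and -1.99 with TubA-20. Oocyte markers moved in TubA-20 as well, 4 of 10 passing 2-fold lower and 2 higher against GV. Of all genes with at least 1 FPKM in at least one of these libraries 23.9% passed lower and 15.5% higher. Against MII 3 markers passed lower and 0 higher, beside 5.21% and 0.7%. *Figla*, an oocyte transcription factor gene, was lower, at 90.5 FPKM in GV and 12.4 with TubA-20. *Gdf9* and *Oosp1* were higher, at 1774 and 2700 FPKM in GV and 3822 and 6213 with TubA-20. The relation of these markers to the CDKs was not tested. *Cdk2* was the member with the widest gap between the doses, TubA-10 being higher than MII by 0.64 and TubA-20 lower than MII, with a log2 change of -1.24, and lower than TubA-10, with one of -1.89.

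*Cdk6* (chr5:3341485-3531008, plus strand), the other kinase of the D-type cyclins, was at 1.07 FPKM in GV, 0.357 in MII, 1.01 with TubA-10 and 0.337 with TubA-20. It resembled *Cdk2* in that TubA-10 was near GV, with a log2 change of -0.04, and MII and TubA-20 lay lower, with -0.61 and -0.63. At a pseudocount of 0.1 or 0.01 FPKM in place of 1, these falls in MII and TubA-20 passed 2-fold, and that in MII reached -1.55. The sign of the small changes of *Cdk2* and *Cdk6* in TubA-10 against GV turned with the *Gapdh* scaling, to 0.12 and 0.10.

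The makeup of the kinases shifted with these courses. *Cdk4* made up 68.7% of the FPKM of the 3 kinases in GV, 50.1% in MII, 37.9% with TubA-10 and 62.7% with TubA-20, while *Cdk2* made up 26.4%, 44.6%, 52.0% and 25.0%. *Cdk2* was the most abundant kinase of the 3 in TubA-10, and *Cdk4* in the other libraries.

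**Figure D3:**
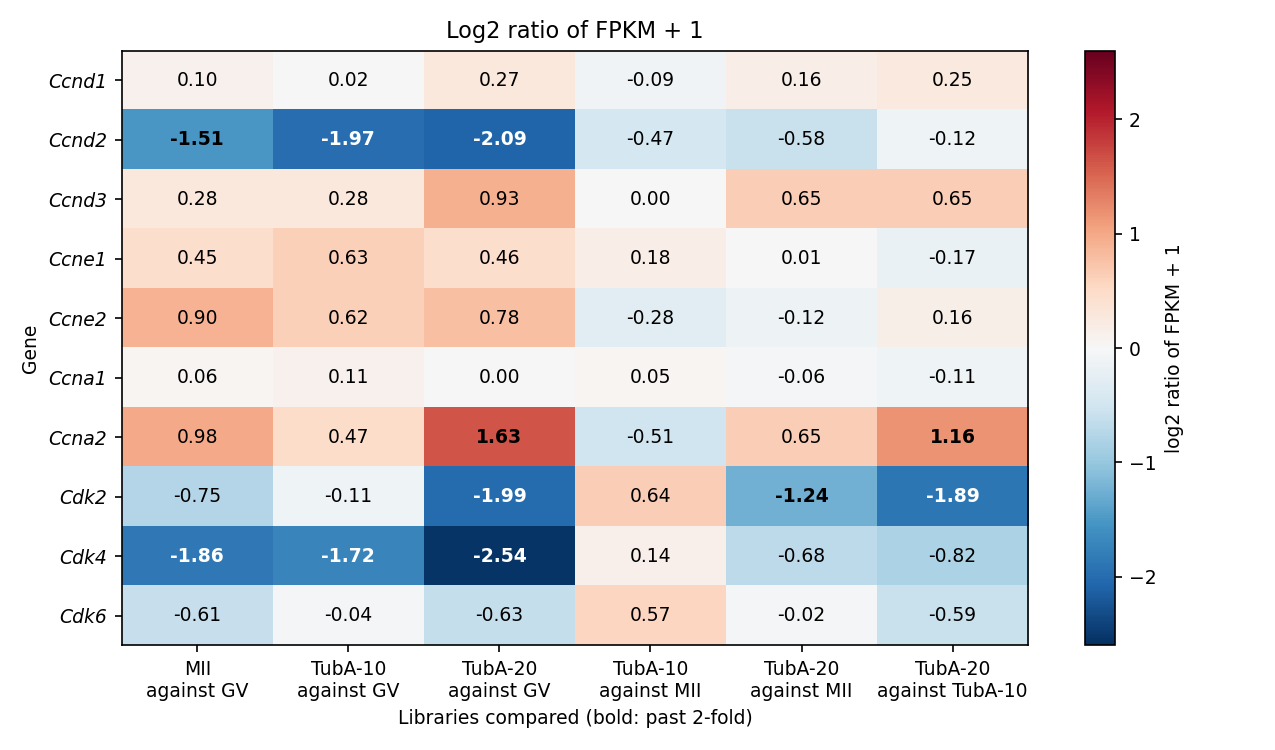
Log2 ratios of FPKM + 1 for the 10 genes (rows) in 6 comparisons of single libraries (columns), with changes past 2-fold in bold and the color scale in log2 units. Falls of *Ccnd2* and *Cdk4* pass 2-fold in all 3 comparisons with GV, and falls of *Cdk2* pass it in all 3 comparisons of TubA-20.

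Counted over the 10 genes, in MII against GV 0 passed 2-fold higher and 2 lower, *Ccnd2* and *Cdk4*. Of all 10661 genes with at least 1 FPKM in at least one of the libraries compared, the only ones that can pass 2-fold with this pseudocount, 6.28% passed higher and 17.2% lower, and 8 of the 10 genes met that minimum. In TubA-10 against GV *Ccnd2* and *Cdk4* passed lower and 0 genes higher, beside 11.6% lower and 1.53% higher of all genes. In TubA-20 against GV *Ccna2* passed higher and 3 genes, *Ccnd2*, *Cdk2* and *Cdk4*, passed lower, against 15.5% and 23.9% of all genes. These 3 comparisons share the GV library, so their counts are not separate evidence. With 8 genes able to pass, the counts are too small to be set apart from these shares.

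Among the cultured libraries, in TubA-10 against MII 0 of the 10 genes passed in either direction, beside 1.1% higher and 0.271% lower of all genes. In TubA-20 against MII *Cdk2* passed lower and 0 genes passed higher, beside 5.21% lower and 0.7% higher, and 6 of the 10 genes met the minimum. In TubA-20 against TubA-10 *Ccna2* passed higher and *Cdk2* lower, beside 1.4% higher and 11.7% lower. The median log2 change over all 10 genes was 0.08 in MII against GV, 0.06 in TubA-10 against GV, 0.13 in TubA-20 against GV and -0.04 in TubA-20 against MII, where the median of all 21957 genes was 0 in each. Many of those genes are at or near 0 FPKM, and with the minimum of 1 FPKM the medians of the members and of all genes were -0.16 and 0.04 in MII against GV, 0.12 and 0.08 in TubA-10 against GV, -0.08 and 0.08 in TubA-20 against GV, and -0.06 and 0.01 in TubA-20 against MII. Such medians hide the 2 directions, since over the 7 cyclins the median in TubA-20 against GV was 0.46 and over the 3 CDKs -1.99.

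**Figure D4:**
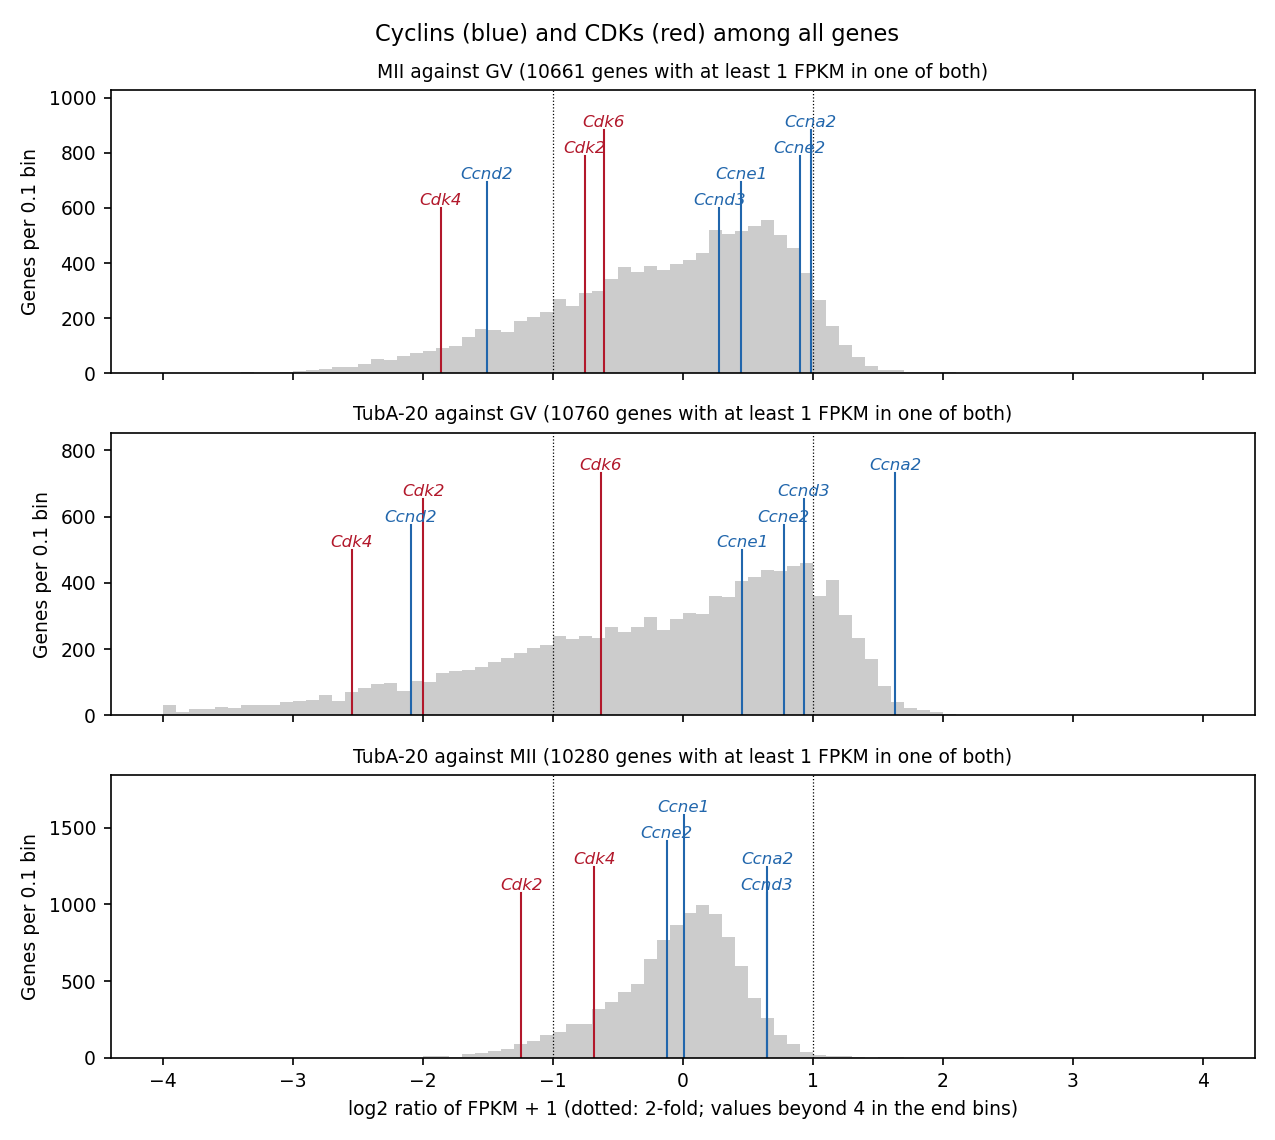
Number of genes per bin of 0.1 by log2 ratio of FPKM + 1 in MII against GV, TubA-20 against GV and TubA-20 against MII, with the cyclins (blue) and CDKs (red) that had at least 1 FPKM in at least one of the libraries compared, and dotted lines at 2-fold. In TubA-20 against GV *Ccna2* lies in the upper end of all genes and *Cdk4* in the lower tail.

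The ratio of cyclin to kinase transcripts was higher in each cultured library than in GV. The A-type and E-type cyclins together were at 11.8 times the FPKM of *Cdk2* in GV, 43.9 times in MII, 18.8 times with TubA-10 and 269.2 times with TubA-20. The D-type cyclins were at 0.973 times the summed FPKM of *Cdk4* and *Cdk6* in GV, 4.14 times in MII, 3.08 times with TubA-10 and 11.6 times with TubA-20. For both pairs the order was GV, TubA-10, MII and TubA-20 from low to high. No scaling of a library alters such a ratio, which is taken within a library. Differences in poly(A) tail length between the genes could still alter it. With TubA-20, however, *Cdk2* rests on about 15 fragments, *Cdk4* on about 34 and *Cdk6* on about 38, so the ratios of that library are rough. Most of the 269.2 came from *Ccna2*, which alone was at 220.8 times *Cdk2*.

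The mitotic pair that drives oocyte maturation is given for comparison. *Ccnb1*, the cyclin that activates CDK1, was at 393.6 FPKM in GV, 749.4 in MII, 625.9 with TubA-10 and 926.7 with TubA-20, and *Ccnb2* at 124.0, 199.1, 190.6 and 220.9. *Cdk1*, the kinase, was at 179.5, 44.2, 120.9 and 15.5 FPKM in the same order. The ratio of *Ccnb1* to *Cdk1* was 2.19 in GV, 16.9 in MII, 5.18 with TubA-10 and 59.8 with TubA-20, the same order of libraries as for the G1 and S pairs. *Cdk1* was above *Cdk2* in every library, at 31.5 times its FPKM in GV, 14.9 in MII, 23.2 with TubA-10 and 22.8 with TubA-20. The difference between the G1 and S pairs and the mitotic pair was not tested, as there was 1 library for each condition.

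**Figure D5:**
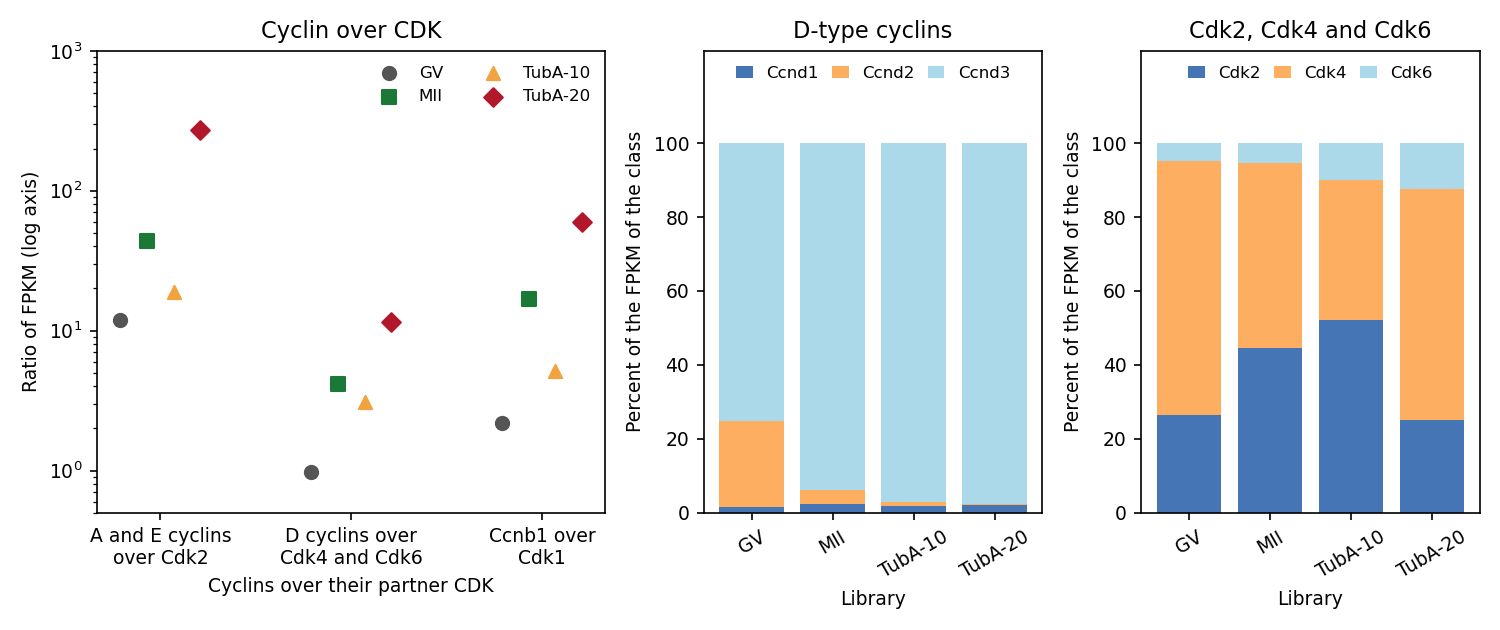
Left, ratio of the FPKM of cyclins to that of their partner CDK (log axis) in the 4 libraries; middle and right, percent of the FPKM of the D-type cyclins and of *Cdk2*, *Cdk4* and *Cdk6* by gene. The ratio of A-type and E-type cyclins to *Cdk2* goes from 11.8 in GV to 269.2 in TubA-20, where *Cdk2* rests on about 15 fragments. *Ccnd3* makes up 97.6% of the D-type cyclins in TubA-20.

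The CDK inhibitors hold cyclin and CDK complexes inactive, and 0 of 7 passed 2-fold in MII against GV, beside 6.28% higher and 17.2% lower of all genes, or in TubA-20 against MII, beside 0.7% higher and 5.21% lower. In both comparisons 5 of the 7 met the minimum of 1 FPKM that the shares rest on. *Cdkn1c*, which codes for p57, had the highest mean level at 18.6 FPKM in GV, 33.7 in MII, 22.0 with TubA-10 and 33.8 with TubA-20. *Cdkn2c*, which codes for the CDK4 and CDK6 inhibitor p18, was next at 5.38, 4.60, 6.64 and 5.24 FPKM. *Cdkn2d*, the p19 gene of the same family, passed higher in TubA-10 against GV, at 1.05, and lower in TubA-20 against TubA-10, at -1.06. It was at 2.39 FPKM in GV, 3.26 in MII, 6.02 with TubA-10 and 2.37 with TubA-20, and is named after its values were seen. In TubA-20 against GV 1 of 7 passed higher and 0 lower, beside 15.5% and 23.9% of all genes. That gene was *Cdkn1a*, the p21 gene, at 2.39 FPKM in GV and 6.75 with TubA-20, named here after its values were seen.

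Among the 13 retinoblastoma and E2F genes, 3 passed higher and 0 lower in MII against GV, 5 higher and 0 lower in TubA-20 against GV, and 0 in TubA-20 against MII. The shares over all genes were 6.28% higher and 17.2% lower in MII against GV, 15.5% and 23.9% in TubA-20 against GV and 0.7% and 5.21% in TubA-20 against MII. In each of these comparisons 10 of the 13 met the minimum of 1 FPKM that the shares rest on. With lists this short no difference from the shares was tested. *E2f5*, a repressive E2F, was at 257.5 FPKM in GV, 618.6 in MII, 404.1 with TubA-10 and 697.8 with TubA-20, and its log2 change in MII was 1.26. *E2f4*, of the same kind, was at 40.1, 74.9, 74.2 and 109.2 FPKM. The E2F partners *Tfdp1* and *Tfdp2* passed 2-fold in MII against GV with log2 changes of 1.21 and 1.42. The other gene past 2-fold in TubA-20 against GV was *Rb1*, named after its values were seen, at 15.7 FPKM in GV and 37.6 with TubA-20. *E2f5* was above each of the 7 cyclins in level in all 4 libraries.

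The activators of CDKs include the CDK-activating kinase and the phosphatase CDC25A. In MII against GV 0 of 5 passed higher and 1 lower, beside 6.28% and 17.2% of all genes. That gene was *Ccnh*, the cyclin of the CDK-activating kinase, at 46.6 FPKM in GV, 18.9 in MII, 26.1 with TubA-10 and 16.0 with TubA-20. *Cdc25a* stayed near one level, at 27.0, 25.5, 21.7 and 25.0 FPKM. In TubA-20 against MII 0 of 5 activators passed, beside 0.7% higher and 5.21% lower of all genes. In TubA-20 against GV 1 of 5, *Ccnh*, passed lower and 0 higher, beside 23.9% and 15.5%. In each of these comparisons 4 of the 5 met the minimum of 1 FPKM that the shares rest on.

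Of 10 genes for the turnover of cyclins and inhibitors, 2 passed higher and 1 lower in MII against GV, beside 6.28% and 17.2% of all genes. In TubA-20 against MII 0 passed higher and 1 lower, beside 0.7% and 5.21%. In both comparisons 9 of the 10 met the minimum of 1 FPKM that the shares rest on. *Skp2*, whose product marks the inhibitor p27 for degradation, was at 3.38 FPKM in GV, 7.76 in MII, 5.33 with TubA-10 and 9.27 with TubA-20. *Fbxw7*, which serves cyclin E, was at 5.84, 13.1, 8.36 and 15.1 FPKM. *Ambra1*, which serves the D-type cyclins, was at 9.87, 2.92, 4.07 and 1.90 FPKM. *Fbxo4*, also described for cyclin D1 and named after its values were seen, was at 0.133, 0.211, 0.161 and 0.219 FPKM, too low to be read. In TubA-10 against GV 0 of the 10 passed higher, so neither *Skp2* nor *Fbxw7* did, and 1, *Ambra1*, passed lower at -1.10. The shares over all genes were 1.53% higher and 11.6% lower, and 9 of the 10 met the minimum.

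*Cks2*, a small subunit that binds CDKs, was at 677.7 FPKM in GV, 1219 in MII, 830.0 with TubA-10 and 1437 with TubA-20. *Skp1a*, the adaptor of the SCF ubiquitin ligases, was at 918.9, 797.9, 1068 and 385.6 FPKM, and its log2 change in TubA-20 against MII was -1.05. In TubA-20 against GV 5 of the 10 turnover genes passed higher and 2 lower, beside 15.5% and 23.9% of all genes. The 5 were *Skp2*, *Fbxw7* and *Cks2* with *Cul1* and *Cks1b*, which are named after their values were seen, and the 2 were *Skp1a* and *Ambra1*.

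The genes whose 3 changes against GV were most like those of the 3 most abundant members were sought among 7897 genes, by the root mean square difference in log2 units. For *Ccna2* these were *Hmg20b* at 0.0374 and *Chd7* at 0.0521. For *Ccne2* they were *Clint1* at 0.00566 and *Cox6a1* at 0.00753, and for *Ccnd3* *Kcnq1* at 0.0214 and *Bbs4* at 0.0368. With 3 values from 4 libraries, close matches are many, and the likeness is a description only.

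Expressed genes with a CPE in the last 150 bases of the 3′ UTR had a median log2 change of 0.40 in MII against GV (2475 genes) and of 0.57 in TubA-20 against GV (2500 genes), while those without one had medians of -0.04 (7012 genes) and -0.03 (7071 genes). *Ccne1*, at 0.45 and 0.46, lay near the medians of the genes with the element. *Cdk2*, which also holds one there, lay far below them at -0.75 and -1.99. *Ccna2*, with 8 elements farther from the end, lay above both medians. *Ccne2*, with none in that window, lay above them too, at 0.90 and 0.78. *Ccnd3*, also with none there, was at 0.28 and 0.93. *Ccnd2*, *Cdk4* and *Cdk6*, with none there either, lay below the medians of the genes without the element. A part of the element in these changes was not tested.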

How the data were processed

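The authors deposited 1 table of FPKM values for the 4 libraries. According to the labels and the methods of the study, total RNA was selected with oligo(dT), made into stranded libraries and sequenced from both ends, and Cufflinks was run with a strand-specific option. The submitters' processing notes name STAR 2.5.0, Cufflinks, Cuffdiff 2.2.1 and mm10. The labels name TRIzol and the methods PicoPure for RNA extraction. The methods name a UCSC gene model, but the entries carry Ensembl identifiers. Of 21959 entries, 21794 were given a symbol by identifier and 165 were not, and entries sharing a symbol were added up to 21957 genes. Read counts are not used here.

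Log2 ratios of FPKM + 1 were computed with no further scaling. No test was run because each condition had 1 library. The named genes were all 10 members, *Cdk1*, *Ccnb1* and *Ccnb2*, the 2 genes of highest mean FPKM in each pathway list, each list gene past 2-fold in MII against GV or TubA-20 against MII, and 2 most alike genes for each of the 3 most abundant members. Likeness was sought among genes with at least 5 FPKM. Members and lists were chosen with earlier results of these data known, and the 3′ UTR motifs after the values were seen. Gene positions, transcripts and 3′ UTRs are from GENCODE M21 (GRCm38). Alternatives were pseudocounts of 0.1 and 0.01 FPKM, minimum values of 1 and 5 FPKM, 4 scalings (median change of 0, equal sums, equal upper quartiles, equal *Gapdh*), thresholds of 1.5-fold and 3-fold, and the highest entry per symbol. Relative depth was taken from steps between FPKM values of 0.001 to 0.15. The share of genes within 0.04 log2 of the step was 22.0% with MII, 26.9% with TubA-10 and 67.2% with TubA-20, so depths are rough. Fragment numbers did not use these depths. They rest on the most frequent low product of FPKM and kilobases among genes with a single transcript of over 3 kb. That value was 0.0825 in GV, 0.0575 in MII, 0.0525 with TubA-10 and 0.1025 with TubA-20, and fragment numbers are rough too. Scripts were tested on simulated data. Python 3.11.15, numpy 2.4.6, pandas 2.3.3 and matplotlib 3.10.9 were used.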

Additional observations from a re-analysis of the deposited data

How the results depend on the processing

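Of 496 values of single genes under an alternative, 470 kept their side of 2-fold, 26 moved across it and 0 took the opposite call. Part of the 470 was fixed in advance, since a minimum only drops genes and each of the 10 genes has 1 entry. All 26 moves came from the pseudocounts and scalings. Of 66 counts of the 10 genes, 44 stayed within 1.5 times. In MII against GV the count of 2 became 4 with a pseudocount of 0.01, with equal sums and with equal *Gapdh*, 1 with a minimum of 5 FPKM, 6 at 1.5-fold and 1 at 3-fold, *Ccna2* and *Ccne2* being the genes added by both scalings. In TubA-10 against GV the count of 2 became 1 with a minimum of 5 FPKM and 4 at 1.5-fold. In TubA-20 against GV the count of 4 became 7 at 1.5-fold. In TubA-10 against MII the count of 0 became 2 with either smaller pseudocount and 1 at 1.5-fold. In TubA-20 against MII the count of 1 became 2 with a pseudocount of 0.1, 3 with 0.01, 0 with a minimum of 5 FPKM, 4 at 1.5-fold and 0 at 3-fold. In TubA-20 against TubA-10 the count of 2 became 4 and 6 with pseudocounts of 0.1 and 0.01, 1 with equal *Gapdh*, 5 at 1.5-fold and 1 at 3-fold. The minimum and the thresholds change the counts by construction, and the cause was not tested for the rest.

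Scaling shifted all log2 changes against GV by between -0.23 and 0.27. With equal *Gapdh* 14.1% of genes passed higher and 13.6% lower in MII against GV. *Ccnd2* and *Cdk4* stayed past 2-fold lower in the 3 comparisons with GV, and *Cdk2* in the 3 comparisons of TubA-20, under every pseudocount and scaling tried. No paired analysis was possible because each condition had 1 library, and no library could be left out. *Ccnd1*, *Ccna1*, *Ccnd2* with TubA and *Cdk2* with TubA-20 rest on few fragments. Poly(A) selection means that a change in mRNA amount and a change in tail length cannot be told apart.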
